A study of Mus musculus with 43 samples.

Results

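The genes described here are 10 of the 13 mRNAs encoded by the mitochondrial genome: mt-Nd1, mt-Nd2, mt-Nd4, mt-Nd5 and mt-Nd6 for subunits of complex I, mt-Cytb for the cytochrome b of complex III, mt-Co1, mt-Co2 and mt-Co3 for the core of complex IV, and mt-Atp6 for a proton channel subunit of complex V, the ATP synthase. They were taken from the table of read counts by their symbols. The choice of these genes was made with earlier results of these data known. All 10 were found among its 54532 genes, 37 of which lie on the mitochondrial genome.

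Mitochondrial DNA is a small circle present in many copies per cell. Both of its strands are read into long transcripts, which are cut into mRNAs, tRNAs and rRNAs largely at the tRNAs that stand between them. The proteins made from the mRNAs join many nuclear-encoded subunits in the complexes of oxidative phosphorylation. All of the mRNAs but mt-Nd6 have the sequence of one strand, and mt-Nd6 comes from the other. Pieces of mitochondrial DNA have also been copied into nuclear chromosomes during evolution, so a short read can match a mitochondrial gene and a nuclear copy alike.

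The RNA came from brain endothelial cells (EC) of mice aged 2 months, sorted as CD31+ cells without CD45 and CD11b, from cortex (21 libraries) or hippocampus (22 libraries). The labels give no treatment and no engineered allele. Of the 7 strains, 129S1/SvImJ had 9 libraries, C57BL/6J, NOD/ShiLtJ, CAST/EiJ and WSB/EiJ 6 each, and DBA/2J and A/J 5 each; CAST/EiJ and WSB/EiJ are recently wild-derived (12 libraries) and the others long-inbred (31). There were 16 female and 27 male libraries. A tag in the titles that the labels do not define, high or low, was balanced among males only (14 high, 13 low), since 15 of the 16 female libraries were titled high. The labels do not say whether libraries came from separate mice, so p-values measure the spread between these samples, which may in part be technical.

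The libraries held 1626534 to 49372356 counts (median 5790701), and the female libraries were the deeper (21242058 against 5257353 counts at the median). Endothelial markers were present in every library (summed over 12 genes, 9967 to 20118 CPM, counts scaled to a library of 1000000), but the markers of astrocytes (10 genes) summed to 1099 to 19671 CPM and those of pericytes (10 genes) to 2029 to 9639 CPM. The 3 nuclear loci Gm23935, Gm42418 and Gm26917, which collect ribosomal RNA reads (rRNA-like loci), took 1.59 to 12.1% of the counts in female and 13 to 29.3% in male libraries, without overlap. The female libraries of A/J, NOD/ShiLtJ and CAST/EiJ lay at 9.66 to 12.1% (n = 5) and those of the other 4 strains at 1.59 to 4.05% (n = 11). In RNA from many cells at once, fewer cells of a type and less RNA per cell cannot be told apart.

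In the mouse genome GRCm38 (mm10) the genes lie on chromosome M in this order: mt-Nd1 at 2751 to 3707, mt-Nd2 at 3914 to 4951, mt-Co1 at 5328 to 6872, mt-Co2 at 7013 to 7696, mt-Atp6 at 7927 to 8607, mt-Co3 at 8607 to 9390, mt-Nd4 at 10167 to 11544, mt-Nd5 at 11742 to 13565, mt-Nd6 at 13552 to 14070 and mt-Cytb at 14145 to 15288. Each is a single exon on the plus strand, except mt-Nd6, which lies on the minus strand and overlaps the end of mt-Nd5. Because the use of strand in the counting is not given in the sources used here, reads of mt-Nd6 and of RNA from the opposite strand over the same bases cannot be told apart.

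Every stretch of the 10 transcripts with the length of a read was looked up, on either strand, in the annotated nuclear transcripts of GENCODE M21. For mt-Co3, 99.85% of the stretches occurred letter for letter in a nuclear pseudogene, Gm28437. The shares were 99.46% for mt-Atp6 (Gm10925) and 99.46% for mt-Co2 (Gm28661 and Gm13341), 59.97% for mt-Nd4 (Gm28439), 26.67% for mt-Co1 (Gm29216 and Gm13340) and 0.547% for mt-Nd2 (Gm13339). No stretch of mt-Nd1, mt-Nd5, mt-Nd6 or mt-Cytb was shared. A nuclear copy outside the annotated transcripts was not looked for.

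The copies formed a pair of blocks. On chromosome 1, on the minus strand between 24611535 and 24616197, lay Gm28439, Gm28437, Gm10925, Gm28661 and Gm29216, which differed from the mitochondrial sequence at no more than 1 base each over their aligned length. On chromosome 2, also on the minus strand, lay Gm13341 (22587291 to 22587962), Gm13340 (22588103 to 22589647) and Gm13339 (22590024 to 22590533), which were 95.91, 97.61 and 96.67% identical to mt-Co2, mt-Co1 and mt-Nd2. The stretches below, each as long as a read, are from the GENCODE M21 transcripts on GRCm38 and show both cases. Bases 278 to 402 of mt-Atp6 stand unchanged in Gm10925, and a read of them has no base by which to place it. Bases 458 to 582 of mt-Co1 differ from Gm13340 at 6 positions, which are in capitals.
mt-Atp6 and Gm10925: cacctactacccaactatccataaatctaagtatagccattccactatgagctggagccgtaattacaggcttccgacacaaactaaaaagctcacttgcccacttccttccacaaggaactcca
mt-Co1: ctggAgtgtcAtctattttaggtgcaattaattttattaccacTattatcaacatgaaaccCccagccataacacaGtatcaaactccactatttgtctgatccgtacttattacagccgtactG
Gm13340: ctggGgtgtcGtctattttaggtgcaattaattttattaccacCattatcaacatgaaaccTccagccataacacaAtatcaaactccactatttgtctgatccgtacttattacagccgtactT

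The levels per kilobase set 3 of the 10 mRNAs apart. In the 37 libraries of strains other than CAST/EiJ the median level was 2100 CPM per kilobase for mt-Cytb, 1783 for mt-Nd1, 1566 for mt-Co1, 1089 for mt-Nd2, 795 for mt-Nd5, 558 for mt-Nd4 and 294 for mt-Nd6. The other 3 members followed at 2.37 CPM per kilobase for mt-Co2, 1.66 for mt-Atp6 and 0.395 for mt-Co3. These are the 3 members whose stretches were nearly all shared with a copy. Among the others the order did not follow the shared part, with mt-Co1 above mt-Nd5 and mt-Nd4 above mt-Nd6. Outside the set, mt-Atp8 shared no stretch with an annotated nuclear transcript, yet had at most 3 counts in 41 libraries and none in 24. Together mt-Co2, mt-Co3 and mt-Atp6 made up 0.00826 to 0.114% of the counts of the 10 mRNAs in these 37 libraries. How reads with several matching places were counted is not given in the sources used here, so the counts of these 3 genes, and in part those of mt-Nd4 and mt-Co1, are uncertain as levels of the mRNA, and the part of the copies in them was not tested.

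**Figure D1:**
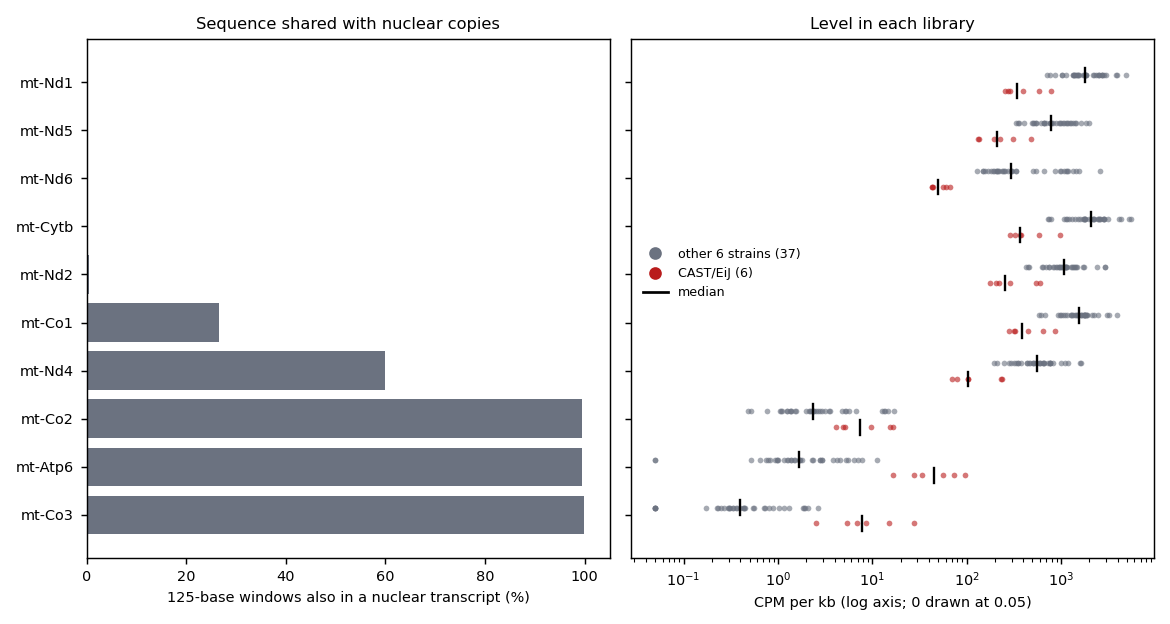
Left, the share of read-length stretches of each mitochondrial mRNA (%) found in an annotated nuclear transcript; right, the level of each mRNA in each library (CPM per kilobase, log axis, 0 drawn at 0.05), with the 6 CAST/EiJ libraries in red and the 37 others in grey. The 3 mRNAs with over 99% of stretches shared are the lowest in the other strains, with medians of 0.395 to 2.37, and for mt-Atp6 and mt-Co3 the red points lie mostly above the grey ones.

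The 10 mRNAs took 0.170 to 2.64% of all counts (median 1.02%). The lowest share, in a CAST/EiJ male hippocampus library titled high, was 12004 counts or 0.170% (95% exact Clopper-Pearson interval 0.167 to 0.173%, which covers counting error only). The highest, in the 129S1/SvImJ female cortex library titled low, was 730936 counts or 2.64% (2.63 to 2.64%). Counting error was thus far smaller than the spread between libraries. By strain the median share was 1.46% in 129S1/SvImJ (0.596 to 2.64%), 1.18% in C57BL/6J (0.865 to 1.38%), 1.18% in WSB/EiJ (1.07 to 1.39%), 1.02% in DBA/2J (0.879 to 1.18%), 0.732% in A/J (0.424 to 2.28%), 0.575% in NOD/ShiLtJ (0.424 to 0.692%) and 0.228% in CAST/EiJ (0.170 to 0.498%). The ranges of neighbouring strains in this order overlapped throughout. In CAST/EiJ, 5 of the 6 libraries lay below every library of the other strains, and the 2 libraries titled low, at 0.367 and 0.498%, were its highest.

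The strains were compared with edgeR's quasi-likelihood test on the counts, and adjusted p is the Benjamini-Hochberg value over all genes tested in a comparison; a gene is called at an adjusted p under 0.05. All 10 mRNAs were among the 29120 genes tested, but mt-Co3 exceeded the filter of 0.5 CPM in 17 libraries only (6 of CAST/EiJ and 11 others), mt-Atp6 in 38 and mt-Co2 in 41. No read of mt-Co3 was counted in 5 libraries and none of mt-Atp6 in 2. Such a library allows up to 3 counts, or 0.562 to 1.84 CPM for mt-Co3 and 0.764 to 1.84 CPM for mt-Atp6. Over all 7 strains 8 of the 10 mRNAs were called, beside 2.68% of all genes; mt-Co3 (adjusted p = 0.0567) and mt-Co2 (adjusted p = 0.669) were not.

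CAST/EiJ stood apart from the other strains in both directions. Against the mean of the other 6 strains, 9 of the 10 mRNAs were called: 7 were lower, beside 0.378% of all genes called lower, and 2 were higher, beside 0.975% called higher. Lower were all 5 complex I mRNAs, mt-Cytb and mt-Co1, by 1.72 to 3.08 on the log2 scale, and higher were mt-Atp6 and mt-Co3. The median log2 change was −1.75 over the 10 mRNAs and −0.12 over all genes tested. These counts of calls, 7 lower and 2 higher, were equal under DESeq2, under other size factors and after leaving out the mitochondrial and rRNA-like genes from the scaling.

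Among the complex I mRNAs, mt-Nd6 showed the widest gap. Its level in the CAST/EiJ libraries was 29.3 and 35.0 CPM in females and 22.3, 22.5, 22.9 and 31.1 CPM in males. In the other strains it was 67.4 to 1341 CPM with a median of 153 CPM, so the groups did not overlap. The difference was −3.08 on the log2 scale (SE 0.40, adjusted p = 4.95e-08). For mt-Nd1, CAST/EiJ held 243 to 758 CPM (median 330.2) against 683 to 4643 (median 1707) in the others, a log2 difference of −2.11 (SE 0.24, adjusted p = 3.09e-10). Of the 6 libraries 5 lay below every other library. mt-Nd4 differed by −2.06 (SE 0.27, adjusted p = 2.9e-08), mt-Nd5 by −1.77 (SE 0.22, adjusted p = 1.48e-08) and mt-Nd2 by −1.72 (SE 0.25, adjusted p = 4.95e-07). For these 3 genes 4 or 5 of the 6 CAST/EiJ libraries lay below all 37 others.

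Cytochrome b showed a change of like size. mt-Cytb was at 378 and 420 CPM in the CAST/EiJ females and at 334, 433, 668 and 1128 CPM in the males, against 836 to 6288 CPM (median 2402) in the other strains. The highest value, from the male cortex library titled low, was the only one inside the range of the others. The difference was −2.09 on the log2 scale (SE 0.25, adjusted p = 1.36e-09). mt-Co1, the catalytic subunit of complex IV, was at 440 and 509 CPM in the females and at 495, 698, 993 and 1342 CPM in the males, against 910.3 to 6131 CPM (median 2420). The 2 libraries titled low were again the highest and lay within the range of the other strains. The log2 difference was −1.72 (SE 0.22, adjusted p = 3.18e-08).

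mt-Atp6 went the other way. It was counted at 11.4 and 18.7 CPM in the CAST/EiJ females and at 22.7, 38.3, 49.9 and 66.2 CPM in the males, against 0 to 7.74 CPM (median 1.13) in the other strains. All 6 libraries lay above all 37 others, and the log2 difference was 4.42 (SE 0.57, adjusted p = 5.22e-09). mt-Co3 was at 1.98 and 6.75 CPM in the females and at 4.19, 5.37, 11.7 and 22 CPM in the males, against 0 to 2.1 CPM (median 0.310). Here 5 of the 6 libraries lay above all others, with a log2 difference of 4.15 (SE 0.89, adjusted p = 0.000934). The fitted fold of both genes rests on libraries with few or no reads: 11 libraries had at most 3 counts of mt-Atp6 and 20 at most 3 of mt-Co3. With male libraries alone mt-Co3 was not called (adjusted p = 0.0716). mt-Co2 was at 2.80 to 11.4 CPM in CAST/EiJ and 0.332 to 11.5 CPM in the others, and its log2 value of 1.5 (SE 0.71) did not pass the test (adjusted p = 0.433).

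**Figure D2:**
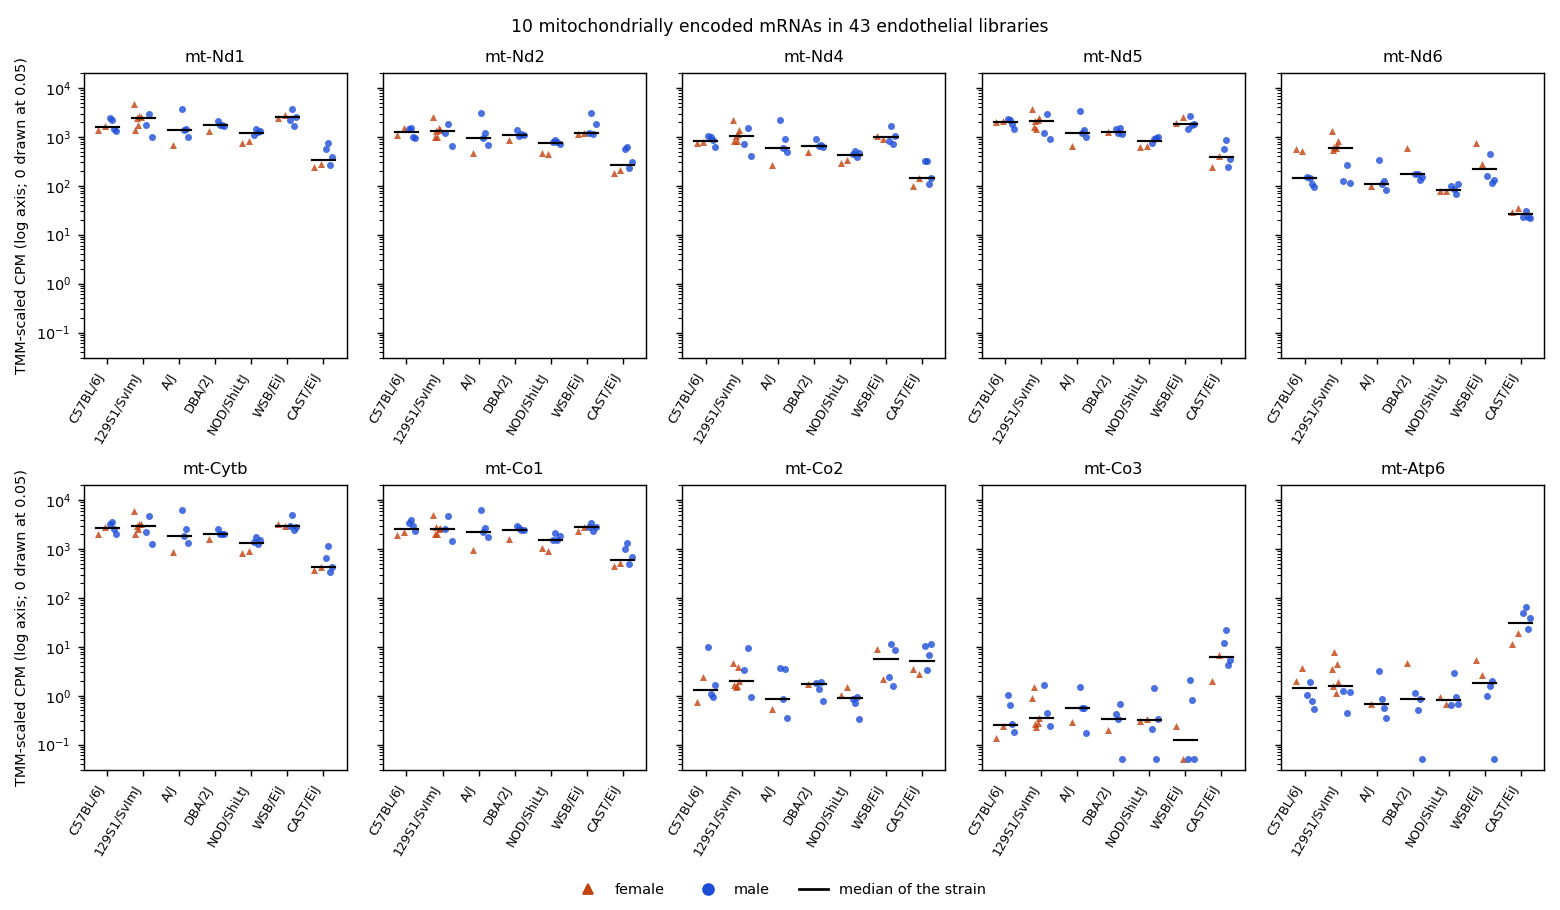
Level of each of the 10 mitochondrial mRNAs in each library (TMM-scaled CPM, log axis, 0 drawn at 0.05) by strain, with females as triangles, males as circles and a line at each strain's median. In CAST/EiJ 7 mRNAs have the lowest median of the 7 strains, for example 427 CPM for mt-Cytb, while mt-Atp6 and mt-Co3 have the highest, at 30.5 and 6.06 CPM.

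The mitochondrial rRNAs moved less. mt-Rnr2, the large ribosomal RNA, fell by 0.91 on the log2 scale in CAST/EiJ (SE 0.20, adjusted p = 0.00311), whereas mt-Rnr1 had a value of −0.32 (adjusted p = 0.726). Per count of mitochondrial rRNA, the 10 mRNAs had 0.0333 to 0.0456 counts in CAST/EiJ and 0.0446 to 0.229 in the other strains. Of the mRNAs outside the set, mt-Nd3, a complex I subunit with 97.32% of its stretches shared with Gm28438, exceeded 0.5 CPM in 5 libraries, all of CAST/EiJ. It reached 13.7 CPM there, against 0.413 CPM at most in the other strains. Since it passed the filter through CAST/EiJ alone and had no read in 23 libraries, its values are given without a test.

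Relative to mt-Cytb, mt-Nd1 and mt-Nd5 in CAST/EiJ overlapped the other strains, while mt-Nd6 in females lay below them. Per 100 reads of mt-Cytb there were 73.2 of mt-Nd1 (median; 77.4 in the other strains) and 80.2 of mt-Nd5 (69.1), and the ranges of the groups overlapped for both. For mt-Nd6, whose ratio differs by sex, both CAST/EiJ females, at 7.76 and 8.33 reads, lay below all 14 other females (8.69 to 36.3, median 21.7). The few females of A/J and NOD/ShiLtJ, whose rRNA-like share was high as in CAST/EiJ (9.66 to 12.1% over these strains), lay at the low end of that range. The CAST/EiJ males, at 2.77 to 6.76 reads (median 4.30), overlapped the other 23 males (3.97 to 9.23, median 5.49). mt-Nd4, which shares stretches, was at 33.0 and 32.9. mt-Co1 and mt-Nd2 were at 134 and 62.4, against 104.6 and 50.1. The ratios of the 3 low members were shifted by far more. mt-Atp6 had 3.02 to 8.84 reads per 100 of mt-Cytb in CAST/EiJ and 0.00616 to 0.292 in the others (counts raised by 0.5), without overlap. mt-Co3 had a median of 1.44 against 0.0197 and mt-Co2 of 1.26 against 0.0797.

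The chromosome 2 copies carried counts that were nearly absent elsewhere. Gm13340, the copy of mt-Co1, was at 422 and 480 CPM in the CAST/EiJ females and at 398, 544, 780 and 1093 CPM in the males, against 0 to 14.9 CPM (median 0.494) in the other strains (log2 8.73, SE 0.42, adjusted p = 5.14e-29). Gm13339, the copy of mt-Nd2, was at 106 to 286 CPM against 0 to 3.57 CPM (log2 9.10, SE 0.47, adjusted p = 1.54e-32). Gm13341, the copy of mt-Co2, was at 45.3 to 145 CPM against 0 to 14.8 CPM (log2 7.24, SE 0.71, adjusted p = 5.18e-13). None of the CAST/EiJ libraries overlapped the others for any of the 3 copies.

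Set against its mitochondrial partner, Gm13340 took 43.8 to 48.9% of the summed counts of copy and mt-Co1 in CAST/EiJ and at most 0.638% in the other strains. Gm13339 took 24.6 to 39.4% of the sum with mt-Nd2, against at most 0.327%. Gm13341 took 86.3 to 97.7% of the sum with mt-Co2, while in the other strains its share ranged from 0 to 83.3% (median 3.96%) on few reads. Together the 3 copies held 22.6 to 26.8% of the counts of copies and 10 mRNAs in CAST/EiJ and at most 0.168% in the others. On chromosome 1 there are 7 annotated copies, with Gm28438 and Gm10222 for mt-Nd3 and mt-Nd4l. Of these 0 were called over the 7 strains, beside 2.68% of all genes, and 0 in CAST/EiJ, beside 1.35%. They summed to a median of 19.7 CPM in CAST/EiJ (11.4 to 39.1) and 9.74 CPM in the other strains (3.36 to 57.2). Gm10925 was at 7.66 to 15.7 CPM in CAST/EiJ against 0.510 to 15.7 CPM in the other strains. The reference genome is that of C57BL/6J, and all strains were aligned to it. The part of sequence differences between the strains in these counts was not tested.

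**Figure D3:**
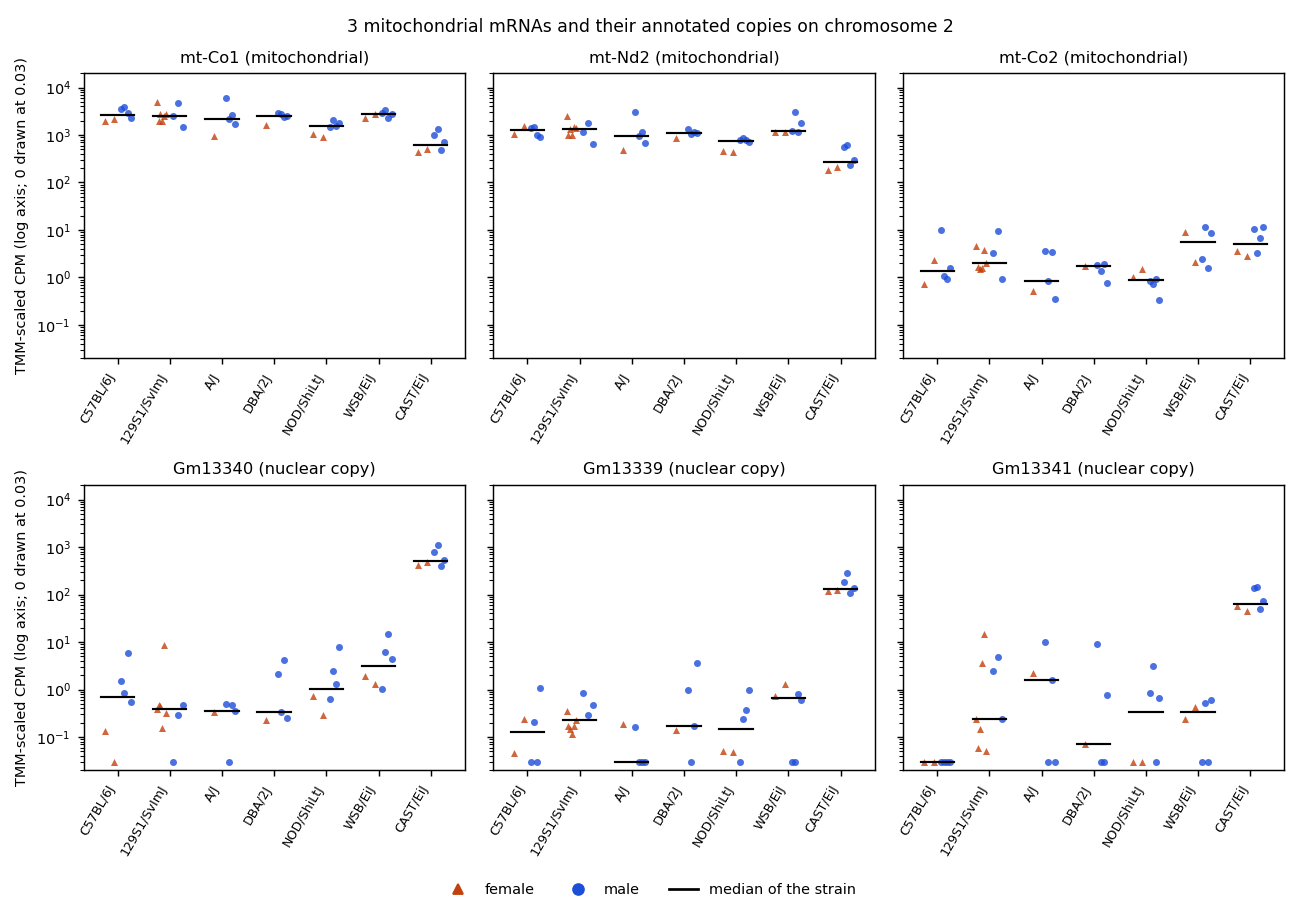
Counts of mt-Co1, mt-Nd2 and mt-Co2 (upper row) and of their annotated copies on chromosome 2, Gm13340, Gm13339 and Gm13341 (lower row), per library and strain (CPM, log axis, 0 drawn at 0.03). All 6 CAST/EiJ libraries lie above the other strains for each copy, for example 398 to 1093 CPM against 14.9 CPM at most for Gm13340.

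Adding the counts of its annotated copies to each mRNA, a step chosen after the values had been seen, left the direction of all 9 calls and added mt-Co2, beside 1.36% of all genes. mt-Co1 then differed by −0.85 in CAST/EiJ (adjusted p = 0.0105), against −1.72 without the copies, and mt-Nd2 by −1.18. mt-Atp6 differed by 2.84 (adjusted p = 6.73e-06), mt-Co3 by 2.53 (adjusted p = 0.0401) and mt-Co2 by 4.06 (adjusted p = 1.3e-11). mt-Nd1, mt-Nd5, mt-Nd6 and mt-Cytb shared no read-length stretch with an annotated nuclear transcript, so no counts were added to them, and they fell by 1.77 to 3.08, as above. Exact matches in the reference do not show where reads of CAST/EiJ were counted. mt-Nd2 shared only 0.547% of its stretches with Gm13339, which took a far larger part of their summed counts in CAST/EiJ. Whether reads of mt-Nd1, mt-Nd5, mt-Nd6 or mt-Cytb were counted elsewhere in that strain was not tested.

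Marker genes of other cells also differed in CAST/EiJ. The pericyte markers summed to 2029 to 3043 CPM, against 2443 to 9639 CPM in the other strains, and 2 of the 10 were called lower. The red blood cell markers (5 genes) summed to a median of 543 CPM (31.2 to 678) against 121 CPM (23.3 to 617), and 2 of them were called higher. Of the smooth muscle markers 1 of 5 was called higher (sums of 258 against 181 CPM at the median), and of the oligodendrocyte markers 1 of 6 lower (25.8 against 100.1 CPM). No marker of endothelial cells (16460 against 15295 CPM), astrocytes (2651 against 3588 CPM), neurons (124.6 against 212 CPM) or microglia (39.3 against 23.1 CPM) was called. The part of these cells in the values of the mitochondrial mRNAs was not tested.

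Among the other strains, 129S1/SvImJ and WSB/EiJ had higher levels. In 129S1/SvImJ 5 mRNAs were called higher, beside 1.18% of all genes: mt-Nd6 by 2.02 (SE 0.24, adjusted p = 7.51e-09), mt-Nd4 by 0.92, mt-Cytb by 0.81, mt-Nd1 by 0.80 and mt-Nd5 by 0.79 on the log2 scale (adjusted p from 0.00122 to 0.00219 for these 4). This fit has no term for sex, and 6 of the 9 libraries of 129S1/SvImJ were female. With male libraries alone 0 of the 10 were called (beside 0.28% of all genes, with 4070 at an unadjusted p under 0.05), and mt-Nd6 was at 0.67 (adjusted p = 0.223). With sex, region and tag as covariates 7 were called, beside 0.538%, with mt-Nd6 at 1.38 (adjusted p = 8.26e-05). Of the marker genes, 2 of 10 pericyte genes were called lower and 1 of 6 neuron genes higher in this strain. Of 5 red blood cell markers 1 was called higher and 1 lower, and of 12 endothelial markers 2 higher and 1 lower. The part of these cells in the values was not tested. In WSB/EiJ 6 were called higher, beside 1.73%: mt-Nd6 by 1.04 (adjusted p = 0.034), mt-Nd1 by 0.94 (adjusted p = 0.000985), mt-Cytb by 0.85, mt-Nd2 by 0.80, mt-Nd4 by 0.80 and mt-Nd5 by 0.74. Pericyte markers were high in the same libraries, with sums of 5161 to 9639 CPM (median 8746) against 2029 to 8701 CPM (median 3891) in the other strains, and 5 of the 10 were called higher. Called lower were 2 of 12 endothelial, 2 of 5 smooth muscle and 1 of 5 red blood cell markers, and the part of these cells was not tested. The median of all genes lay at −0.72 in that contrast and at 0.10 in the one of 129S1/SvImJ. In C57BL/6J mt-Nd5 alone was called (0.72, SE 0.18, adjusted p = 0.0398), beside 0.529% of all genes. Its call was lost without any 1 of 4 A/J libraries (all but the male hippocampus library titled low) and without the DBA/2J male cortex library titled low. mt-Co1 was called in none of these 3 strains, with values of 0.55, 0.47 and 0.50 and the smallest adjusted p at 0.0508 in 129S1/SvImJ.

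No mitochondrial mRNA was called in A/J, DBA/2J or NOD/ShiLtJ, in which 0.254, 0.192 and 0.185% of all genes were called and 2952, 2230 and 2773 genes had an unadjusted p under 0.05. In NOD/ShiLtJ all 10 log2 values were nonetheless negative, from −0.45 for mt-Nd1 to −1.76 for mt-Co2, and the smallest adjusted p was 0.107, for mt-Nd5. DESeq2 gave 0 calls among the 10 mRNAs in each of these 3 strains as well, and its share of calls over all genes is not given here. Within A/J the male hippocampus library titled low was far above the other 4, with 3782 CPM of mt-Nd1 against 683 to 1474 CPM.

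Each of these contrasts has CAST/EiJ in the mean of the other strains. When CAST/EiJ was left out, a step added after its values were known, 5 mRNAs differed over the 6 remaining strains (mt-Nd1, mt-Nd4, mt-Nd5, mt-Nd6 and mt-Cytb), beside 1.19% of all genes. Only mt-Nd6 was then called in 129S1/SvImJ (1.55, adjusted p = 0.00014, beside 0.608% of all genes), and this call did not hold in further fits, also added later, that took sex into account. mt-Nd6 was at 0.86 with sex, region and tag as covariates (adjusted p = 0.128, beside 0.28%) and at 0.26 with male libraries alone (adjusted p = 1, beside 0.144%), and 0 of the 10 were called in either fit. In WSB/EiJ and C57BL/6J 0 of the 10 were called, beside 1.44 and 0.222% of all genes (3288 and 3185 genes at an unadjusted p under 0.05). In NOD/ShiLtJ 6 were called lower, beside 0.197% of all genes called in either direction: mt-Nd6 by −1.71, mt-Nd4 by −1.14, mt-Nd5 by −1.10, mt-Cytb by −1.09, mt-Nd2 by −0.94 and mt-Co1 by −0.87 (adjusted p from 0.00118 to 0.0348). The levels of mt-Cytb give this order in CPM: the median was 1340 in NOD/ShiLtJ (836 to 1738), 1808 in A/J, 2061 in DBA/2J, 2665 in C57BL/6J, 2941 in WSB/EiJ and 2976 in 129S1/SvImJ, with overlapping ranges between neighbours.

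The wild-derived strains as a group were not like each other. Against the 5 long-inbred strains, mt-Atp6 was higher by 3.41 (SE 0.54, adjusted p = 8.52e-06) and mt-Co3 by 3.17 (SE 0.81, adjusted p = 0.0227), beside 0.508% of all genes called higher, and no mRNA was called lower. When only CAST/EiJ was set against the long-inbred strains 9 were called, beside 0.98% of all genes. When only WSB/EiJ was set against them 0 were called, beside 0.895% (2623 genes at an unadjusted p under 0.05). The members' share was 0.170 to 0.498% in CAST/EiJ and 1.07 to 1.39% in WSB/EiJ, without overlap. The median of all genes in the comparison of origins was −0.38 on the log2 scale.

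Between the sexes mt-Nd6 alone was called, beside 2.56% of all genes called higher in females. It was 29.3 to 1341 CPM in female (median 543, n = 16) and 22.3 to 445 CPM in male libraries (median 114, n = 27), and 10 of the 16 female libraries lay above every male one. The log2 difference was 1.84 (SE 0.28, adjusted p = 3e-06). The other complex I mRNAs had values from −0.17 for mt-Nd2 to 0.18 for mt-Nd5, mt-Cytb −0.03 and mt-Co1 −0.31, all with an adjusted p of 0.486 or more. mt-Co2, mt-Atp6 and mt-Co3 were at −0.55, −0.74 and −1.24 with standard errors of 0.62, 0.69 and 1.02. The value of mt-Atp6 ran from −1.25 to 2.86 under other settings, without a call. By its CPM, on few reads, all female libraries lay above all male ones in 3 of the 7 strains and below them in 1. Markers of other cells differed by sex as well. The astrocyte markers summed to a median of 2533 CPM in females (1099 to 4752) and 3980 CPM in males (1480 to 19671), and 2 of the 10 were called lower in females. The pericyte markers summed to 3789 and 5235 CPM with none of the 10 called, and 2 of the 12 endothelial markers were called higher in females (16254 and 15128 CPM). All but 1 of the female libraries were titled high, and the fit has no term for the tag. In male libraries titled high the medians were 3229 CPM for astrocyte, 3806 CPM for pericyte and 16489 CPM for endothelial markers. The part of these cells was not tested.

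The sex difference of mt-Nd6 was not equal in all strains (interaction of sex and strain, adjusted p = 0.0049, beside 0.398% of all genes). In 129S1/SvImJ the females were at 527, 598, 613, 695, 810 and 1341 CPM and the males at 114, 126 and 260 CPM. In C57BL/6J they were at 514 and 558 CPM against 95.4, 108, 142 and 153 CPM, and in DBA/2J at 594 CPM in 1 female library against 132, 154, 172 and 175 CPM. Female libraries thus lay above all male ones in these 3 strains. In WSB/EiJ the females were at 281 and 759 CPM and the males at 112, 129, 159 and 445 CPM, with an overlap.

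In the remaining strains the levels of mt-Nd6 lay together. NOD/ShiLtJ females were at 77.9 and 78.1 CPM and males at 67.4, 88.0, 97.9 and 107 CPM. In A/J the female library was at 100 CPM and the males at 81.5, 108, 124 and 344 CPM, and in CAST/EiJ the females at 29.3 and 35.0 CPM lay within or just above the males' range of 22.3 to 31.1 CPM. The strains were then divided by the rRNA-like share of their female libraries. In 129S1/SvImJ, C57BL/6J, DBA/2J and WSB/EiJ the sex difference was 2.00 (SE 0.20, adjusted p = 1.41e-10, beside 2.58% of all genes). In A/J, NOD/ShiLtJ and CAST/EiJ it was −0.55 (SE 0.45, adjusted p = 0.747), and 0 of the 10 mRNAs were called, beside 0.0697% of all genes; all 10 values were negative, down to −1.36. This split was made after the values had been seen. With the rRNA-like share as a covariate, which is nearly the same variable as sex, mt-Nd6 was at 0.74 (SE 0.58, adjusted p = 0.713) and mt-Co1, at −1.72, was the only one called (adjusted p = 0.00423, beside 0.226% of all genes). Sex and the rRNA-like share of the library cannot be told apart across all libraries.

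Taken as a ratio, mt-Nd6 set the sexes apart in every strain. Per 100 reads of mt-Cytb there were 7.76 to 36.3 reads of mt-Nd6 in female (median 20.9) and 2.77 to 9.23 in male libraries (median 5.48). Within each of the 7 strains all female libraries had a higher ratio than all male ones, although A/J and DBA/2J have 1 female library each. By CPM this was so in 3 of the 7. The female ratios were 9.63 to 36.3 in the 4 strains with a low rRNA-like share in females and 7.76 to 11.6 in the other 3, while the male ratios had medians of 5.49 and 5.35. Over all 43 libraries the log2 ratio and the rRNA-like share had a Spearman's rho of −0.69, with −0.70 over the 16 female and 0.065 over the 27 male libraries. The points share strain and sex, and the part of library composition in the ratio was not tested.

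**Figure D4:**
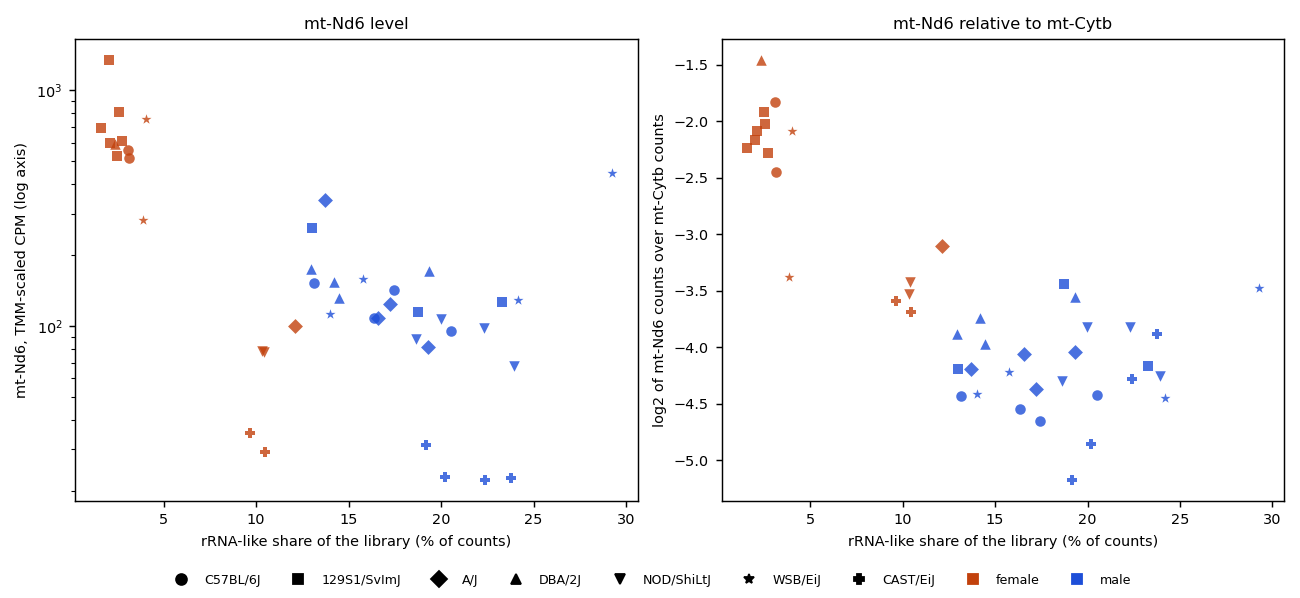
Level of mt-Nd6 (CPM, log axis; left) and its log2 ratio to mt-Cytb (right) against the share of counts on the rRNA-like loci (%) in each library. Female libraries lie at 1.59 to 12.1% on the x axis and male ones at 13 to 29.3%, and the log2 ratio runs from −3.69 to −1.46 in females and from −5.17 to −3.44 in males.

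The mitochondrial rRNAs differed by sex. mt-Rnr1 was lower in females by −0.89 (SE 0.13, adjusted p = 3.6e-07) and mt-Rnr2 by −0.70 (SE 0.14, adjusted p = 0.000274). This fit of sex has no term for the tag, and all but 1 of the female libraries were titled high. In males both rRNAs were lower in libraries titled high, as given below. The rRNAs took a median of 6.98% of counts in females and 9.82% in males titled high. The female library titled low was at 17.5%, the highest of the females. The part of the tag in the sex difference was not tested. Of the 22 mitochondrial tRNA genes 8 were tested, with a median of −1.29 on the log2 scale, and 1 was called: mt-Ty, the tRNA for tyrosine, was higher in females by 4.69 (SE 0.71, adjusted p = 1.23e-06), with no read in 22 of the 27 male libraries. Of the other 7, 5 had negative and 2 positive values, from −5.34 to 3.64. All 22 tRNA genes together took a median of 0.00762% of counts in females of the 4 strains with a low rRNA-like share in females. In the males of these strains it was 0.000572%. In the other 3 strains the medians were 0.000181% in females and 0.000506% in males. The part of library composition in these values was not tested. Per count of mitochondrial rRNA the 10 mRNAs had a median of 0.150 counts in females and 0.0787 in males (0.0883 in males titled high). In the 4 strains with a low rRNA-like share in females these were 0.173 and 0.0867, and in the other 3 strains 0.0458 and 0.0459.

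Between cortex and hippocampus 0 of the 10 mRNAs were called, beside 0.0755% of all genes called (1631 genes at an unadjusted p under 0.05). The log2 values of hippocampus against cortex ran from −0.40 for mt-Atp6 to 0.55 for mt-Co2, and those of the 7 abundant mRNAs from −0.15 for mt-Co1 to 0.06 for mt-Nd2, with standard errors of 0.19 to 0.36. For mt-Cytb the levels were 378 to 6030 CPM in cortex (median 2067) and 334 to 6288 CPM in hippocampus (median 2056). DESeq2 called 0 of them as well, and its calls over all genes are given in the closing section. The share of the 10 mRNAs had medians of 1.02% in cortex (0.180 to 2.64%) and 0.956% in hippocampus (0.170 to 2.28%). The interaction of sex and region was called for none of the 10 (adjusted p = 1, beside 0.00343% of all genes called).

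In males, all 10 mRNAs had lower values in libraries titled high than in those titled low. Whether this passed the test differed between fits, which differed in how strain and region entered and in the libraries used. Without strain and region 0 of the 10 were called, beside 1.06% of all genes called (2233 of 27529 genes at an unadjusted p under 0.05, mt-Nd2 among them). The log2 values were −0.48 for mt-Nd2 (SE 0.21, adjusted p = 0.484), −0.43 for mt-Cytb, −0.42 for mt-Nd1 and −0.52 for mt-Nd6. DESeq2 likewise called 0 of the 10, and its calls over all genes are given in the closing section. mt-Co2 turned to 0.08 without C57BL/6J. With strain and region as covariates 0 were called, beside 2.25%, and the smallest adjusted p was 0.0593, for mt-Nd1.

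Of the male libraries, 26 form 13 pairs of the same strain and region, 1 titled high and 1 low. The library left over, 129S1/SvImJ cortex titled high, had a share of the 10 mRNAs of 2.00%. That was the highest share among the male libraries titled high. A fit on the 26 paired libraries with the pair as a block was added after the values had been seen. It called 6 of the 10 lower in libraries titled high, beside 2.37% of all genes. The part of the library left out in this change was not tested. mt-Cytb was at −0.58 (SE 0.08, adjusted p = 7.33e-06), mt-Nd1 at −0.55 (SE 0.09, adjusted p = 5.68e-05), mt-Co1 at −0.47 (SE 0.08, adjusted p = 6.42e-05), mt-Nd2 at −0.56 (adjusted p = 0.000126), mt-Nd4 at −0.57 (adjusted p = 0.00032) and mt-Nd5 at −0.38 (adjusted p = 0.0309). mt-Nd6 was at −0.50 (adjusted p = 0.0936), and mt-Co2, mt-Atp6 and mt-Co3 had an adjusted p of 0.923. The fit left out 2334 genes whose fitted values exceeded 5 times their highest count, none of them among the 10. The share of the 10 mRNAs was higher in the library titled low in 11 of the 13 pairs. The exceptions were DBA/2J cortex, at 0.902% titled low and 1.02% titled high, and NOD/ShiLtJ hippocampus, at 0.559 and 0.591%. The largest gap was in A/J hippocampus, at 2.28 and 1.03%. In CAST/EiJ the share was 0.498 and 0.234% in cortex and 0.367 and 0.170% in hippocampus. By gene, mt-Nd4 was higher in the library titled low in 13 of 13 pairs, mt-Co1, mt-Cytb, mt-Nd1, mt-Nd2 and mt-Nd6 in 12, mt-Co3 and mt-Atp6 in 11, mt-Co2 in 10 and mt-Nd5 in 9. The labels do not say that the libraries of a pair came from one mouse.

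**Figure D5:**
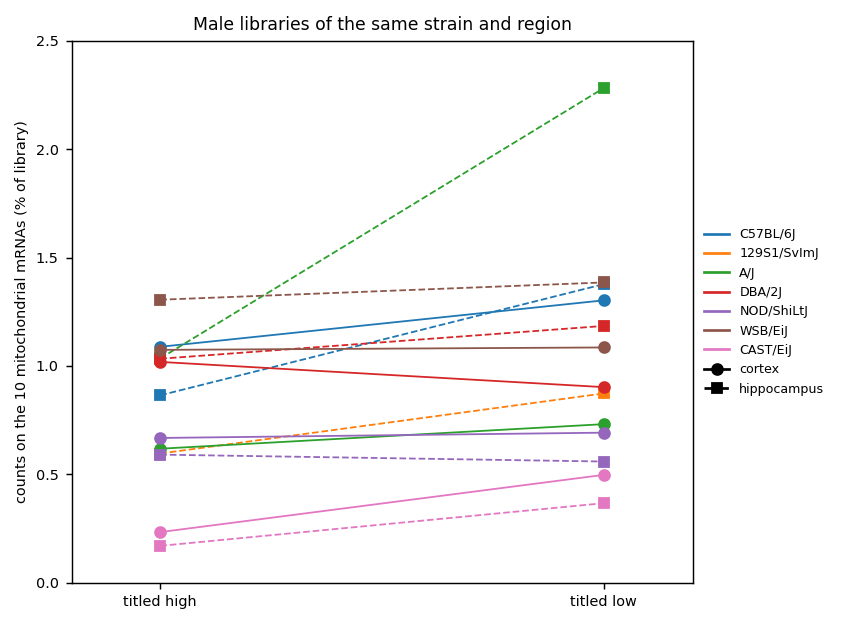
Share of counts on the 10 mitochondrial mRNAs (% of the library) in 13 pairs of male libraries of the same strain and region, titled high and low, with a line joining each pair. The share is higher in the library titled low in 11 of the 13 pairs, and the steepest line is A/J hippocampus, from 1.03 to 2.28%.

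The rRNAs of the mitochondrion passed the test for the tag. mt-Rnr1 was lower in libraries titled high by −0.74 (SE 0.10, adjusted p = 6.43e-06) and mt-Rnr2 by −0.73 (SE 0.12, adjusted p = 0.000173). Markers of other cells moved with the tag too. Over 10 genes each, the pericyte markers summed to a median of 3806 CPM in libraries titled high and 6674 CPM in those titled low, and the astrocyte markers to 3229 and 5188 CPM. The 12 endothelial markers summed to 12797 to 19401 CPM (median 16489) and 12263 to 15547 CPM (median 13717). The test called 4 of the endothelial markers higher and 1 of the pericyte and 3 of the astrocyte markers lower in libraries titled high. Also lower were 2 of 6 neuron markers (sums of 129 and 278 CPM at the median) and 1 of 6 oligodendrocyte markers (35.8 and 121 CPM). Red blood cell markers went the other way, with 2 of 5 called higher (347 CPM titled high and 89.9 CPM titled low). The part of these cells in the values of the mitochondrial mRNAs was not tested.

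Few genes of any kind were called in CAST/EiJ, 1.35% of all genes in either direction, and the nuclear genes for the same complexes were not among them. Of 39 complex I genes (Nduf), 8 complex III (Uqcr), 18 complex IV (Cox) and 17 complex V genes (Atp5) tested, 0 were called there, with median log2 values of 0.24, 0.41, −0.01 and 0.20. The same held for 18 genes that copy, transcribe or process mitochondrial nucleic acids, with a median of 0.25. Polrmt, the mitochondrial RNA polymerase, was at a median of 20.6 CPM in CAST/EiJ and 18.4 CPM in the others. Tfam, which packs mitochondrial DNA and starts its transcription, was at 17.7 and 15.2 CPM, and Lrpprc, which stabilises mitochondrial mRNAs, at 39.0 and 34.2 CPM. The ranges overlapped for all 3.

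Between the sexes, where 1 mitochondrial mRNA was called, more of the nuclear genes were. Higher in females were 6 of 39 complex I, 2 of 8 complex III, 3 of 18 complex IV and 6 of 17 complex V genes, and none was lower. Of all genes 2.56% were called higher in females. The medians were 0.68, 0.75, 0.57 and 0.50, against −0.12 over all genes. Among them were Ndufb4 (2.73, adjusted p = 2.15e-08), Uqcrb (2.02, adjusted p = 4.44e-08), Cox6c (1.81, adjusted p = 2.86e-10) and Atp5h (1.80, adjusted p = 1.71e-11). Of the 18 nucleic acid genes Ssbp1, which binds single-stranded mitochondrial DNA, was higher (1.74, adjusted p = 0.0193). The fit of sex has no term for the rRNA-like share or the tag. With the rRNA-like share as a covariate 0.226% of all genes were called in either direction. In A/J, NOD/ShiLtJ and CAST/EiJ alone 0.0697% were. The nuclear genes named here were not looked at in those fits. In WSB/EiJ, where 6 mitochondrial mRNAs were called higher, 3 complex I, 2 complex III, 2 complex IV and 1 complex V genes were called lower (beside 0.68% of all genes), among them Ndufc1 (−3.83) and Cox4i1 (−1.39). For origin, region and tag 0 of these genes were called. Beside them stood 0.508% of all genes called higher by origin, and 0.0755 and 1.06% called by region and tag. Over the 7 strains the test called 0 of 39 complex I, 2 of 8 complex III, 1 of 18 complex IV and 2 of 17 complex V genes. These were Uqcrh, Uqcrb, Cox4i1, Atp5mpl and Atp5j, beside 2.68% of all genes. Of the 18 nucleic acid genes 0 were called over the strains.

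Across the 43 libraries the levels of mt-Nd1, mt-Nd2, mt-Nd4, mt-Nd5, mt-Co1 and mt-Cytb varied together. Spearman's rho between their CPM was 0.868 to 0.977 over 15 pairs, and 0.795 to 0.966 without CAST/EiJ. mt-Nd6 followed them less closely, at 0.657 to 0.821. The 3 low members had values of −0.238 to 0.331 with these 6 genes in all libraries and of 0.151 to 0.774 without CAST/EiJ. The libraries share strain, sex and scaling, and reads were counted from the same libraries. Nuclear genes were also ranked by likeness to the mean of the log2 levels of the 10 mRNAs, in which each mRNA counts equally. Among 8669 genes with a mean of at least 10 CPM, the highest were Atrx (rho 0.789), Dst (0.755), Zbtb20 (0.751), Snhg11 (0.730) and Chd3 (0.726). The share of the 10 mRNAs also ran against the number of genes detected, with a rho of −0.56 over the 43 libraries.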

How the data were processed

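Per the study's methods, total RNA of sorted EC was depleted of rRNA, made into stranded low-input libraries and read single-end; HISAT2 2.1.0, SAMtools 1.9 and featureCounts (Subread 1.4.4) are named for mm10. The authors deposited raw read counts for 54532 genes in 43 libraries; the counting of multi-mapped reads and of strand is not given in the sources used here. Groups were taken from the labels.

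Counts were scaled by TMM and tested with edgeR 4.0.16 (R 4.3.3) by the quasi-likelihood test with trended dispersions and bias-adjusted deviances, on the 29120 genes reaching 0.5 CPM in 1 library or more (27529 for the tag in males), without covariates. Contrasts were strain (each against the mean of the other 6), origin, sex, region and tag in males; p-values were adjusted (Benjamini-Hochberg) over all genes tested, with a threshold of 0.05. Ratios to mt-Cytb used counts plus 0.5 and were described without a test. DESeq2 1.42.0, other scaling, other filters, covariates, subsets and, for the tag, a block for each pair of male libraries of one strain and region were run as alternatives. Stretches of 125 bases were compared with GENCODE M21 transcripts (Biopython 1.88); no genome sequence was searched. Intervals of 95% are exact binomial. Genes like the members were ranked by Spearman's rho. The scripts were tested on simulated data, where false calls exceeded the nominal rate, most in the strain contrast. The members and gene lists were chosen with earlier results of these data known.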

Additional observations from a re-analysis of the deposited data

Results flagged for a closer look

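In 13 of 77 groups of 4 to 10 libraries, 1 library lay far from the rest by Dixon's test at 95%. The groups hold the same libraries for each gene, mix the sexes, and rest on genes that vary together. The 13 are thus not independent, and their number cannot be set against the rate of the test. In A/J this was the male hippocampus library titled low, with 3782 CPM of mt-Nd1 (next 1474), 3035 CPM of mt-Nd2 (next 1178), 3405 CPM of mt-Nd5 (next 1388), 344 CPM of mt-Nd6 (next 124) and 3.13 CPM of mt-Atp6 (next 0.847). In DBA/2J it was the only female library, with 594 CPM of mt-Nd6 (next 175) and 4.76 CPM of mt-Atp6 (next 1.13). In WSB/EiJ the male hippocampus library titled low had 4947 CPM of mt-Cytb (next 3220) and 3025 CPM of mt-Nd2 (next 1809). In NOD/ShiLtJ the male cortex library titled low had 2.90 CPM of mt-Atp6 (next 0.936) and 1.45 CPM of mt-Co3 (next 0.341). mt-Co2 was at 10.03 CPM in a C57BL/6J male hippocampus library titled low (next 2.36) and at 9.44 CPM in a 129S1/SvImJ male cortex library titled high (next 4.58). Of 30 tests of whether an effect differed between groups, 1 passed: the sex effect of mt-Nd6 by strain (adjusted p = 0.0049, edgeR).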

How the results depend on the processing

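In CAST/EiJ the direction of all 10 mRNAs was the same in each of the 190 values under other settings, with 8 to 10 called. In the other comparisons 122 of 1920 values changed sign, 1 of them among called values: mt-Nd6 by sex, at −0.55 in A/J, NOD/ShiLtJ and CAST/EiJ, where 0 mRNAs were called. The number of calls moved as follows. Without CAST/EiJ it was 5 over all strains, 0 in C57BL/6J, 1 in 129S1/SvImJ, 6 in NOD/ShiLtJ and 0 in WSB/EiJ; with male libraries alone as well 3, 0, 0, 4 and 0, and with the other label factors as covariates as well 0 in C57BL/6J, 0 in 129S1/SvImJ, 7 in NOD/ShiLtJ and 1 in WSB/EiJ. With male libraries only it was 0 in C57BL/6J and 0 in 129S1/SvImJ. With DESeq2 it was 0 in C57BL/6J and 3 in WSB/EiJ, with at least 1 CPM in 5 libraries 0 in C57BL/6J, and with no filter 1 in NOD/ShiLtJ. With edgeR's default deviances it was 7 in C57BL/6J, 4 in A/J, 2 in DBA/2J, 7 in NOD/ShiLtJ and 3 for the tag; over all genes that setting called 13526 by strain (781 as reported, 1314 with DESeq2), 6712 by origin (218 and 395), 10473 by sex (830 and 1031), 8023 by region (22 and 61) and 8327 by tag (293 and 635). By origin it was 0 in cortex, 1 in hippocampus, and against the long-inbred strains 9 for CAST/EiJ alone and 0 for WSB/EiJ alone. The cause of these moves was not tested. Leaving out each A/J or DBA/2J library in turn gave 8 to 9 calls over the strains, 0 to 1 in C57BL/6J, 5 to 7 in 129S1/SvImJ (7 without the A/J male hippocampus library titled low), 5 to 6 in WSB/EiJ (5 without the female A/J library), 9 to 9 in CAST/EiJ and 0 in A/J, DBA/2J and NOD/ShiLtJ. In males, the pair of one strain and region as a replicate block gave 6 calls for the tag, in a fit without the unpaired library. The fit of all male libraries without the block gave 0. No label ties a pair to 1 mouse, and replicate numbers pair no libraries. Depth limits mt-Co3, mt-Atp6 and mt-Co2, with at most 3 counts in 20, 11 and 5 libraries.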
